A study of Mus musculus with 6 samples.

Results

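Cholesterol and lipid synthesis genes were followed in cultured mouse cortical neurons over 6 h of depolarization. The set holds 33 genes of the 43432 listed, picked by name for their function: 7 genes of the mevalonate pathway, 11 of squalene and sterol synthesis, 5 that control the SREBP transcription factors, 7 of sterol transport and removal, and 3 of fatty acid synthesis. The list was chosen with earlier results of these data known, so the shares of members set against all genes below are descriptions. All 33 were matched by symbol and all 33 passed the filter on low counts in each comparison.

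The neurons came from the cortex of wild-type C57BL/6 embryos of both sexes, pooled, at E16.5, and were kept in culture for 7 days. Every dish was first silenced overnight with 1 µM TTX, which blocks sodium channels, and 100 µM DL-AP5, which blocks NMDA receptors. KCl at 55 mM, which depolarizes the membrane and lets calcium in, was then applied for 2 h or 6 h, and the 0 h group was silenced in the same way but never held in KCl. Each of the 3 groups holds 2 replicates, 6 libraries in all, described as biological replicates without saying whether they came from separate litters, so the tests measure the spread between these dishes. The 0 h group is not a resting culture, since it carries the same blockers.

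Cholesterol is built from acetyl-CoA. The mevalonate pathway makes isoprenoid units that are joined into farnesyl diphosphate, squalene and then lanosterol, which a chain of enzymes trims and reduces to cholesterol. SREBP factors are made as precursors bound to Scap in the endoplasmic reticulum, where Insig proteins hold them while sterol is plentiful. When sterol falls, the complex moves to the Golgi, the factor is cut free and it turns on genes of sterol and fatty acid synthesis. The brain does not take up cholesterol from the blood, and in adult brain much of it comes from astrocytes on Apoe-containing lipoproteins, while young neurons also make their own.

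Upstream sequences are shown first for 5 members that stand for the main patterns described here. Hmgcs1, Msmo1 and Hsd17b7 rose, whereas Mvk and Nsdhl were lower at 6 h. The 250 bases before the start of each gene are printed 5′ to 3′ on the gene's own strand, from RefSeq on GRCm38.p6. They cover chr13:119690101-119690350 (plus strand) for Hmgcs1, chr8:64733579-64733828 (minus) for Msmo1, chr1:169969206-169969455 (minus) for Hsd17b7, chr5:114444019-114444268 (plus) for Mvk and chrX:72918271-72918520 (plus) for Nsdhl. Capitals mark CCAAT, the letters bound by NF-Y, on either strand (ATTGG on the minus strand), and in Hmgcs1 also the match to the sterol regulatory element TCACNCCAC, the letters bound by SREBP.
Hmgcs1: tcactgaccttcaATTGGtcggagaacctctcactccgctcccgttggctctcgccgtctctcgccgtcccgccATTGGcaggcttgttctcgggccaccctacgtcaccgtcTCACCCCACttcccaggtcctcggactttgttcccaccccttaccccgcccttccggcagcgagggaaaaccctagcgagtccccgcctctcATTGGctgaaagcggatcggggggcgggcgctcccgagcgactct
Msmo1: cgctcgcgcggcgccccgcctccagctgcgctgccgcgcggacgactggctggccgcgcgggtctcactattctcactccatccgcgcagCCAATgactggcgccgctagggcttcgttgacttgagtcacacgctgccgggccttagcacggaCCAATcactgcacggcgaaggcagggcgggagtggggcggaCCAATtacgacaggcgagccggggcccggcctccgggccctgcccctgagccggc
Hsd17b7: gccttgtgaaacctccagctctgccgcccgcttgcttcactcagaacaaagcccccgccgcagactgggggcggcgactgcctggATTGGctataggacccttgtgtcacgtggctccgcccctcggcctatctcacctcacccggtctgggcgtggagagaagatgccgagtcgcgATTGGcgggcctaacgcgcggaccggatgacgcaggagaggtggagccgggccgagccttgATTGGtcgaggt
Mvk: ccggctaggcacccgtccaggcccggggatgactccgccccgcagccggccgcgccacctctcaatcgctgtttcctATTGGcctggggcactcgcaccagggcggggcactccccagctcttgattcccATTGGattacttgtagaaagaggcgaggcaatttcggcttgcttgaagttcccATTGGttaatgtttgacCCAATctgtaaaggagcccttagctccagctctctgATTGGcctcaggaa
Nsdhl: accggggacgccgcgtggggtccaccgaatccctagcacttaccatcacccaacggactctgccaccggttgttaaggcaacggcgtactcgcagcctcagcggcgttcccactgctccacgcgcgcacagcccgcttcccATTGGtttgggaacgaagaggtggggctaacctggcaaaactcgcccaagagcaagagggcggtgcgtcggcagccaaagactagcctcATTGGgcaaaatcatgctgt

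These letters are common near the members' starts. RefSeq windows of 300 bases (250 before the start to 50 after it) were matched for 25 of the 33 members, and Fdps, Fdft1, Sqle, Stard4, Npc1, Abcg1, Scd1 and Scd2 were not matched. Pmvk, Dhcr7, Srebf1, Scap, Insig2 and Apoe also had later windows. Counts of members below use only the first listed window of each gene, and members matched only in a later window are named apart. CCAAT on either strand was found in 20 of the 25, against 37.9% of 27025 promoters with 1 window per gene. GGGCGG, the core letters bound by Sp1, was found in 20 of the 25 against 35.9% of all, and also in later windows of Srebf1 and Insig2. TCACNCCAC was found in 1 of 25, Hmgcs1, which reads TCACCCCAC 137 bases before the start, and in 1.22% of all. TGANTCA, the letters bound by AP-1 factors such as Fos, was found in 1 of 25, Msmo1, and in 7.93% of all. A later window of Dhcr7 held TGANTCA too. TGACGTCA, the cAMP response element, was found in 0 of 25 and 1.88% of all, and the E-box TCACGTGA in 0 of 25 and 1.01%. All searches covered both strands, and TGANTCA, TGACGTCA and TCACGTGA can match both strands at the same place.

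CCAAT did not separate members by direction. In the first listed window it was found in 12 of the 13 matched members that rose at 6 h and in 6 of the 7 that fell. Dhcr7, the remaining one that fell, held it only in a later window. Among matched members not past the threshold at 6 h, 2 of 5 held it. Mvk, which fell, held 5 copies, more than any other matched member, and Nsdhl, which also fell, held 4 in its 300-base window, as many as Hmgcs1. A match is a description of the letters and not evidence of binding.

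Libraries held between 25959298 and 28573067 expected counts, with 18767 to 19212 genes above 0. Fos, an immediate-early gene known to answer depolarization, had normalized counts of 38.2 and 34.5 (0 h), 6939 and 8222 (2 h) and 3915 and 3806 (6 h). The replicates at 2 h stood apart by base composition. Among members with a GC content under 50%, 2 h replicate 1 was above replicate 2 in 10 of 14, while among the other 19 it was above in 2, and over all genes tested the shares were 69.7% and 22.5%. A fit on counts corrected for GC content is therefore given wherever it moves a member across a threshold.

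The set as a whole took more of the transcriptome after KCl. Members held 1.01% and 1.04% of all counts at 0 h, against 1.45% and 1.45% at 2 h and 1.46% and 1.48% at 6 h. Their summed level was 6745 and 6937 TPM at 0 h, against 9638 and 9569 at 2 h and 9854 and 10036 at 6 h. TPM is transcript abundance corrected for length and scaled to a fixed total. Both depolarized groups lay above both 0 h libraries, and the gain came mainly from the mevalonate and sterol enzymes. Mevalonate pathway genes summed to 2871 and 2971 TPM at 0 h, against 4365 and 4095 at 2 h and 4744 and 4860 at 6 h. Squalene and sterol genes went from 1328 and 1261 to 2224 and 2121 and then to 2224 and 2167 TPM. Transport and removal genes, by contrast, had levels of 962 and 1090 TPM (0 h), 1083 and 1324 (2 h) and 964 and 1053 (6 h), and both KCl groups overlapped the 0 h group.

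**Figure D1:**
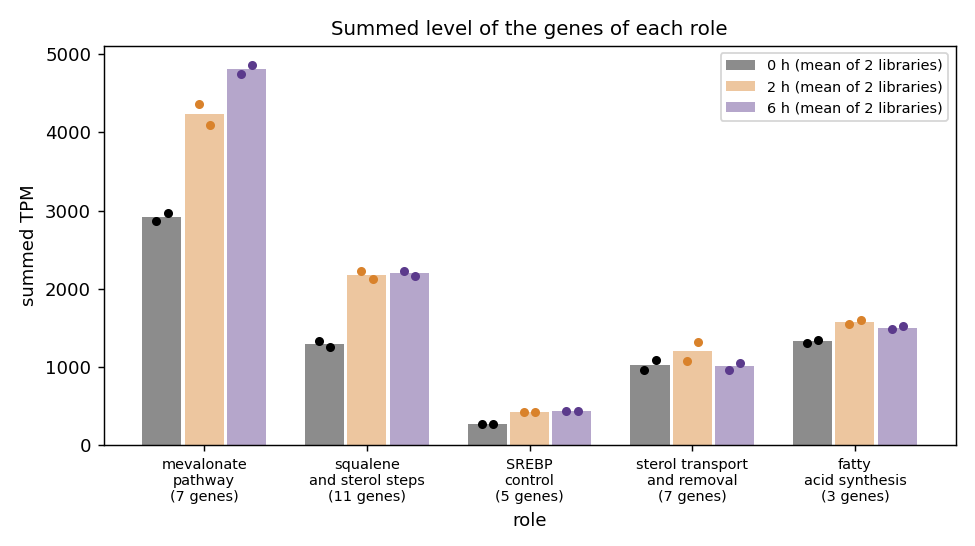
Summed TPM (vertical axis) of the genes of each role (horizontal axis) in the 3 groups. Bars are means of 2 libraries and points are the libraries. Mevalonate genes rise from 2871 and 2971 at 0 h to 4744 and 4860 at 6 h, while the transport and removal genes of both KCl groups overlap 0 h.

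To ask which members moved by 2 h, normalized counts (expected counts divided by a size factor per library) were compared with 0 h by DESeq2 over all genes. At an adjusted p of at most 0.05, 21 of 33 members were higher, against 12.3% of the 16840 genes tested, and 4 were lower, against 14.2%. With a change of more than 2-fold as well, here termed called, 7 were higher against 3.62% of all genes and 1 was lower against 5.94%. The median log2 fold change was 0.39 over the members and 0.02 over all genes tested. Cyp51, Msmo1, Sc5d, Insig1 and Stard4 were called higher in every alternative fit run, and Abcg1 was called lower in every such fit. The count of 21 dropped to 12 without 0 h replicate 1 and to 12 without 0 h replicate 2, and the count of 4 lower dropped to 1 without either. Scaled by library totals, which lowered the median of all genes to -0.16, Acat2, Fdft1, Ebp, Scap, Npc2, Scd1 and Scd2 no longer passed and Abca1 passed as lower (-0.36), with 14 higher and 5 lower.

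At 6 h against 0 h, 19 members were higher, against 23.7% of the 17277 genes tested, and 8 were lower, against 21.7%. Of these, 9 were called higher, against 9.1%, and 2 were called lower, against 10.2%. The share of members that fell was close to that of all genes, and the share that rose was above it. The median was 0.38 over the members and 0.00 over all genes tested. Idi1, Cyp51, Msmo1, Hsd17b7, Sc5d, Insig1 and Stard4 were called higher in every alternative fit run. The 8 lower members dropped to 4 without 0 h replicate 1, 4 without 0 h replicate 2, 5 without 6 h replicate 1 and 4 without 6 h replicate 2. Scaled by library totals, with the median of all genes at -0.25, Acat2, Pmvk, Npc2 and Scd2 no longer passed and Abca1 (-0.34) and Apoe (-0.42) passed as lower. The 2 called lower, Mvk and Nsdhl, dropped to 1 without either 0 h library, since Nsdhl came to -0.98 without replicate 1 and Mvk to -0.998 without replicate 2.

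At 6 h against 2 h, 7 were higher, against 24.1% of the 16404 genes tested, and 7 were lower, against 21.2%, both shares near those of all genes. Npc1 alone was called higher, against 10.1% of all genes, and Mvk and Nsdhl were called lower, against 8.02%. The median was -0.01 over the members and -0.01 over all genes tested. The 7 higher fell to 3 without 0 h replicate 1, 3 without 0 h replicate 2, 2 without 6 h replicate 1 and 2 without 6 h replicate 2. Without 2 h replicate 1 a total of 2 members were called higher, the added one being Idi1 at 1.54, and without 2 h replicate 2 only Mvk was called lower, with Nsdhl at -0.92. Further members passed this test once a 2 h library was left out, namely Hmgcs1 without either (0.39 without replicate 1, 0.16 without replicate 2), Cyp51 without replicate 1 (0.24), and Msmo1 (-0.28), Srebf2 (0.36) and Fasn (0.30) without replicate 2.

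Over both steps, 18 members were higher at 2 h and again at 6 h against 0 h. Of these, 6 (Idi1, Fdft1, Lss, Hsd17b7, Sc5d and Stard4) rose further between 2 h and 6 h. A second pattern was a late fall: Mvk, Mvd, Tm7sf2, Nsdhl and Cyp46a1 did not pass the test at 2 h and were lower at 6 h, against both 0 h and 2 h. Dhcr7, Srebf1 and Abcg1 were lower at both times, and Ebp, Scap and Scd1 were higher at 2 h alone by the threshold in this fit. Npc1 was lower at 2 h and higher at 6 h, and Insig2, Abca1 and Apoe passed the test against 0 h at neither time.

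**Figure D2:**
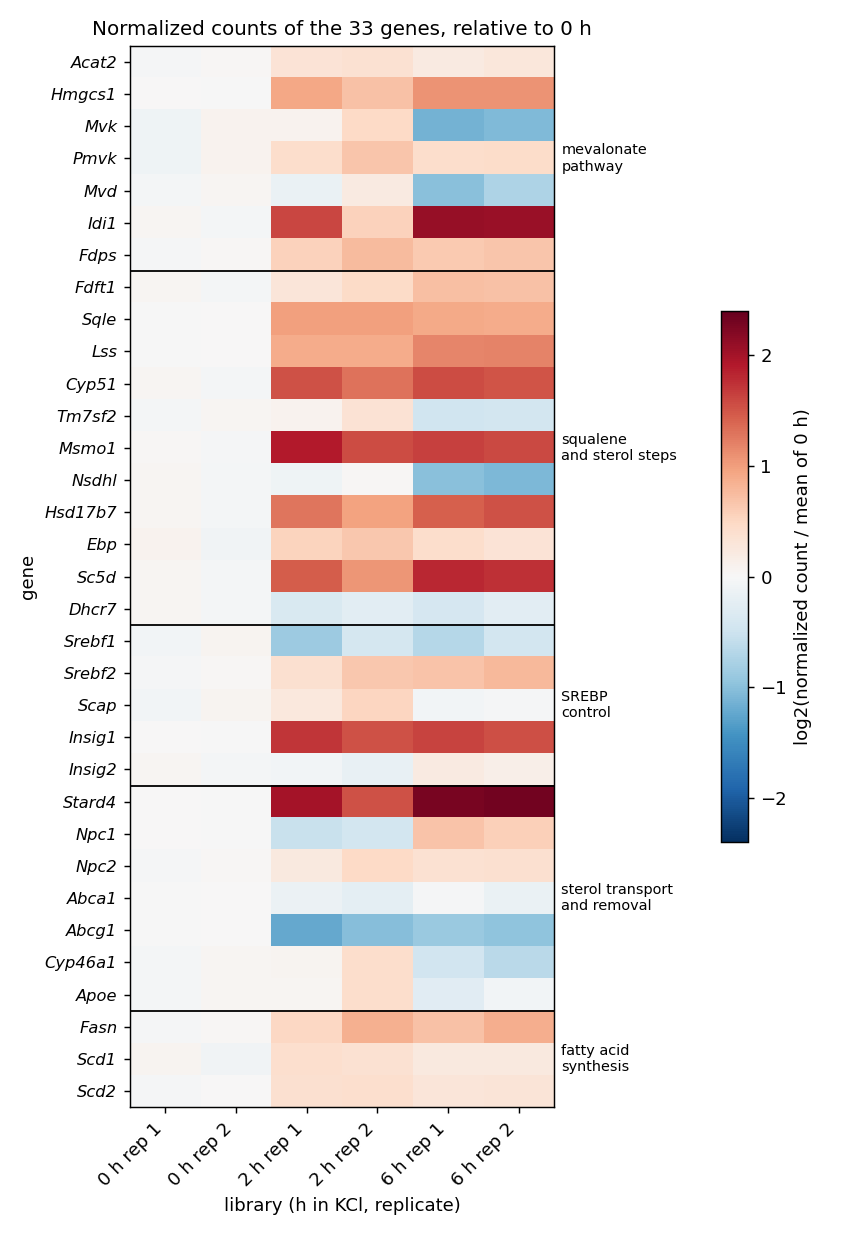
Heat map of the 33 members (rows, grouped by role) in the 6 libraries (columns). Colour is the log2 ratio of the normalized count to the 0 h mean, red for higher and blue for lower. Most rows of the enzyme groups are red in all 4 KCl libraries, while Mvk, Mvd, Tm7sf2 and Nsdhl turn blue at 6 h.

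Members of the mevalonate pathway had the highest summed level. At 2 h, 5 of 7 rose, against 12.3% of all genes tested, and all 7 had a log2 fold change above 0. At 6 h, 5 rose, against 23.7% of all genes tested, and 2 fell, against 21.7%, namely Mvk and Mvd, which act on either side of Pmvk. The fall of 2 of 7 is near the share of all genes. Hmgcs1, the enzyme that makes HMG-CoA (ENSMUSG00000093930, chr13:119690379-119708260, plus strand), had the highest TPM of all members, 1242 and 1234 (0 h), 2070 and 1795 (2 h) and 2291 and 2335 (6 h). Its normalized counts were 51646 and 50727 at 0 h, against 97729 and 83321 at 2 h and 108336 and 108527 at 6 h, with no overlap between groups. Such separation was common with 2 libraries per group. Against 0 h, both libraries lay above in 31.5% of genes tested at 2 h and 40.9% at 6 h. Both lay below in 31.1% and 39.6%. The log2 fold change was 0.82 ± 0.12 (SE) at 2 h (adjusted p = 4.64e-11) and 1.08 ± 0.12 at 6 h (adjusted p = 3.42e-19), and the step from 2 h to 6 h did not pass (0.26 ± 0.12, adjusted p = 0.0549).

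Idi1, which isomerizes the isoprenoid unit (ENSMUSG00000058258, chr13:8885501-8892451, plus strand), had normalized counts of 5854 and 5538 (0 h), 17215 and 8356 (2 h) and 24380 and 24016 (6 h). Both 6 h libraries were above all others, and the 2 h libraries lay far from each other though above 0 h. The log2 fold change was 1.17 ± 0.28 at 2 h (adjusted p = 0.000297) and 2.09 ± 0.28 at 6 h (adjusted p = 1.7e-12), the latter a 4.25-fold rise. The size at 2 h moved with the 2 h library left out: it was 0.54 without 2 h replicate 1 and 1.58 without 2 h replicate 2, and the adjusted p was 0.211 without 0 h replicate 1, 0.255 without 0 h replicate 2 and 0.0512 by edgeR. The step from 2 h to 6 h was 0.92 (adjusted p = 0.00342), but 1.54 without 2 h replicate 1 and 0.51 without 2 h replicate 2. It did not pass without 0 h replicate 1 (0.92, adjusted p = 0.136) or 0 h replicate 2 (0.91, adjusted p = 0.138), by edgeR (0.0706) or scaled by library totals (0.0584). Correction for GC content, which is 40.6% in Idi1 and the lowest of the members, brought the 2 h libraries to 16420 and 12439. Expected counts of Idi1 were not whole in any of the 6 libraries, so reads were shared with another locus and its level is uncertain.

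Mvk, mevalonate kinase (ENSMUSG00000041939, chr5:114444269-114460591, plus strand), went the other way. Its normalized counts were 653 and 747 at 0 h, against 747 and 980 at 2 h and 319 and 335 at 6 h. Both 6 h libraries were below all others, and the 2 h and 0 h libraries met at 747. Mvk fell by 1.10 ± 0.19 on the log2 scale at 6 h against 0 h (adjusted p = 9.99e-08) and by 1.40 ± 0.19 against 2 h (adjusted p = 6.54e-12). With GC correction the fall against 0 h came to -0.97, just under 2-fold.

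Mvd, the decarboxylase that follows the kinases, had normalized counts of 1814 and 1958 (0 h), 1685 and 2198 (2 h) and 940 and 1129 (6 h). The 0 h and 2 h libraries overlapped and both 6 h libraries were lower, with a log2 fold change of -0.87 ± 0.18 (adjusted p = 7.72e-06). Pmvk, the kinase between them, was higher at both times, by 0.55 ± 0.14 and 0.43 ± 0.14. Fdps, which makes farnesyl diphosphate, rose from 11073 and 11426 to 16563 and 19105 at 2 h and 17484 and 17839 at 6 h (log2 fold change 0.66 and 0.65). Acat2, the cytosolic thiolase that opens the pathway, was higher by 0.35 ± 0.09 and 0.24 ± 0.09, but its 6 h change was -0.004 when libraries were scaled by their totals. Expected counts of Acat2 were not whole in 5 libraries, so its level is less certain. Acat2 did not pass at either time with any 1 of the 0 h or 6 h libraries left out (adjusted p up to 0.36), with folds of 0.33 to 0.39 at 2 h and 0.21 to 0.28 at 6 h on the log2 scale, nor with TMM scaling at 6 h (0.0657). Pmvk did not pass without 0 h replicate 1 at 2 h (0.47, adjusted p = 0.123), nor without 0 h replicate 1 or either 6 h library at 6 h (0.35 to 0.44, adjusted p up to 0.195).

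Among the squalene and sterol genes, 8 of 11 rose at 2 h and 7 at 6 h, against 12.3% and 23.7% of all genes tested, and 4 and then 5 of them were called, against 3.62% and 9.1%. At 2 h 1 fell and at 6 h 3 fell, shares near the 14.2% and 21.7% of all genes. The median log2 fold change of the 11 was 0.89 at 2 h and 0.90 at 6 h. Msmo1, the sterol methyl oxidase (ENSMUSG00000031604, chr8:64718139-64733792, minus strand), had normalized counts of 4557 and 4404 at 0 h, against 16769 and 13194 at 2 h and 14039 and 13380 at 6 h. All 4 KCl libraries were far above 0 h, and the 2 h and 6 h libraries overlapped. Msmo1 rose 3.34-fold at 2 h (log2 1.74 ± 0.15, adjusted p = 4.63e-31) and 3.06-fold at 6 h (1.61 ± 0.15, adjusted p = 4.36e-27).

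Enzymes acting with Msmo1 diverged. Msmo1, Nsdhl and Hsd17b7 work in turn to take methyl groups off the sterol ring. Hsd17b7, the ketosteroid reductase of this cycle (ENSMUSG00000026675, chr1:169949535-169969241, minus strand), had normalized counts of 1304 and 1229 (0 h), 3072 and 2476 (2 h) and 3416 and 3675 (6 h). The groups did not overlap, and the log2 fold change was 1.13 ± 0.15 at 2 h (adjusted p = 7.66e-13) and 1.49 ± 0.15 at 6 h (adjusted p = 3.22e-22). Nsdhl, the dehydrogenase between them (ENSMUSG00000031349, chrX:72918557-72958514, plus strand), had normalized counts of 3428 and 3200 at 0 h, against 3091 and 3395 at 2 h and 1653 and 1575 at 6 h. The 0 h and 2 h libraries overlapped, and the 6 h libraries were at about 0.487 of the 0 h level. Nsdhl changed by -1.04 ± 0.12 at 6 h against 0 h (adjusted p = 1.21e-17) and by -1.01 ± 0.12 against 2 h (adjusted p = 1.8e-16).

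Cyp51, the lanosterol demethylase, had normalized counts of 7595 and 7178 (0 h), 21187 and 18213 (2 h) and 21919 and 20977 (6 h). All KCl libraries lay above 0 h and the 2 h and 6 h libraries overlapped, with log2 fold changes of 1.42 ± 0.12 (adjusted p = 5.46e-30) and 1.54 ± 0.12 (adjusted p = 9.52e-36). Sc5d, the sterol desaturase, went from 2083 and 1956 to 5528 and 4204 at 2 h and 7076 and 6771 at 6 h. It rose 2.41-fold at 2 h (adjusted p = 6e-14) and 3.43-fold at 6 h (adjusted p = 2.22e-27), with no overlap between groups. Sqle, squalene epoxidase, a rate-limiting enzyme, went from 7072 and 7167 to 14035 and 14151 and then 13423 and 13148, close to 2-fold at both times (1.98-fold and 1.87-fold). With GC correction Sqle was called at 2 h (log2 1.06, adjusted p = 2.07e-50). Lss, which closes the ring to lanosterol, went from 3134 and 3171 to 5849 and 5841 and then 7077 and 7155 (log2 0.89 ± 0.09 and 1.17 ± 0.09). In Sqle and Lss the replicates differed little beside the change.

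The other sterol genes changed by less. Fdft1, squalene synthase, was higher by 0.38 ± 0.11 at 2 h and 0.72 ± 0.11 at 6 h, with non-whole counts in 6 libraries. Ebp, the sterol isomerase and the least abundant member of this group, was higher at 2 h (0.59 ± 0.17, adjusted p = 0.00386) and had 0.38 ± 0.17 at 6 h (adjusted p = 0.0611), where it passed by edgeR (0.0426) and with a minimum mean count of 10 (0.0463). Tm7sf2, a sterol reductase, had normalized counts of 612 and 653 at 0 h, against 673 and 810 at 2 h and 456 and 467 at 6 h, with a log2 change of -0.46 ± 0.16 at 6 h against 0 h (adjusted p = 0.0133). Dhcr7, which carries out a closing reduction, was lower at 2 h (-0.31 ± 0.12, adjusted p = 0.0452) and at 6 h (-0.33 ± 0.12, adjusted p = 0.0184).

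Several of the smaller changes did not pass with 1 library fewer, though each kept its direction. With any 1 of the 0 h or 6 h libraries left out, Fdft1 at 2 h came to 0.34 to 0.43 (adjusted p up to 0.253), Dhcr7 to -0.35 to -0.25 at 2 h (up to 0.538) and -0.41 to -0.25 at 6 h (up to 0.318), and Tm7sf2 at 6 h to -0.50 to -0.41 (up to 0.227). Ebp at 2 h did not pass without 0 h replicate 1 (0.0849), 0 h replicate 2 (0.241) or 2 h replicate 2 (0.079), with values of 0.52 to 0.68. The steps of Lss (0.28 to 0.29, adjusted p up to 0.219) and Fdft1 (0.33 to 0.35, up to 0.161) from 2 h to 6 h did not pass with any 1 of the 0 h or 6 h libraries left out, nor that of Sc5d without either 6 h library (0.47 to 0.54, up to 0.106), which came to 0.34 without 2 h replicate 2. The step of Hsd17b7 did not pass with any library but 2 h replicate 1 left out (0.22 to 0.40, up to 0.32) or with TMM scaling (0.0853). Scaled by library totals, the steps of Lss (0.0862), Fdft1 (0.0665) and Hsd17b7 (0.0829) did not pass either. Cyp51 and Fdft1 overlap exons of Akap9 and Ctsb on the opposite strand, and Tm7sf2 overlaps Vps51 on the same strand, so their counts are less certain. Counts were not whole in 6 libraries for Fdft1, 1 for Tm7sf2 and 0 for Cyp51.

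**Figure D3:**
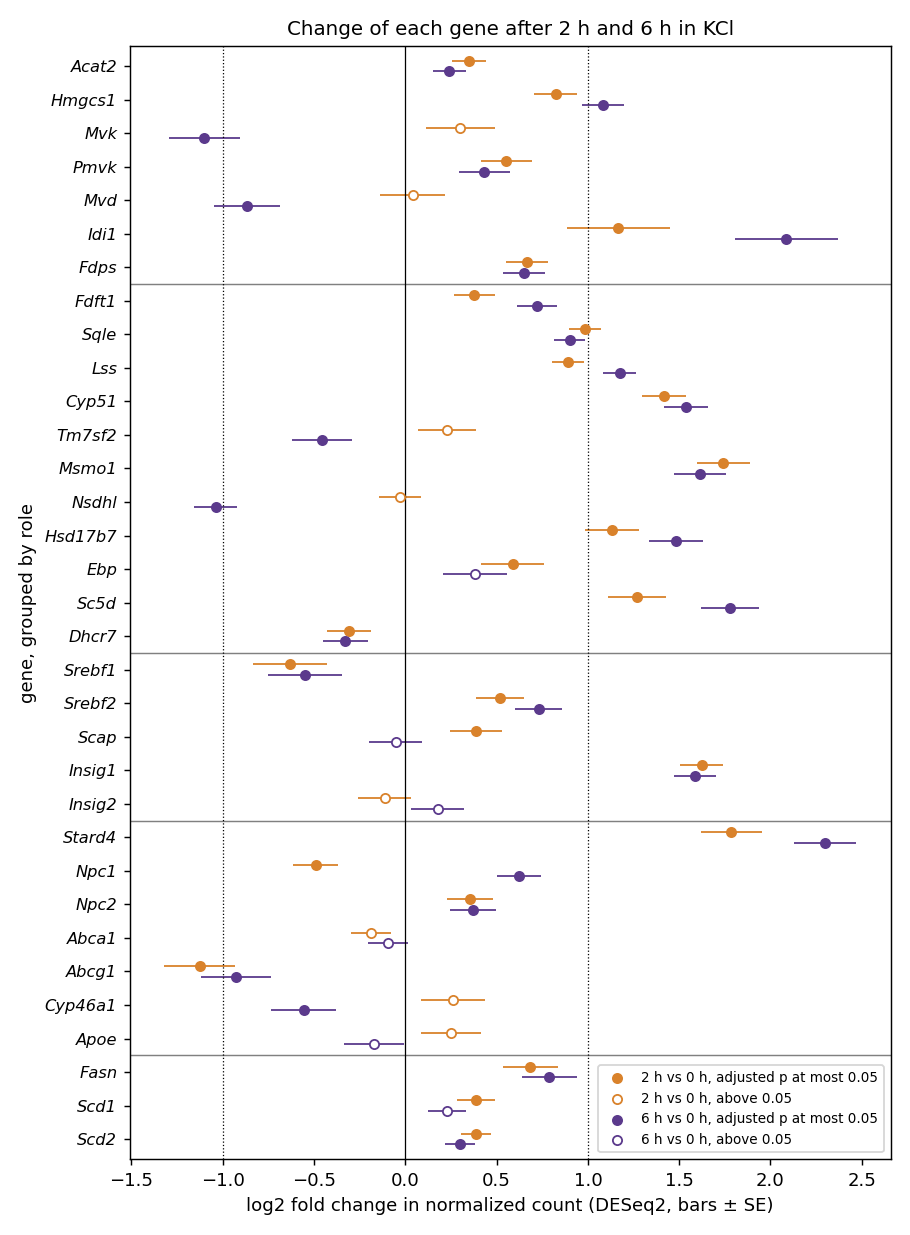
Log2 fold change of each member against 0 h (horizontal axis) at 2 h (orange) and 6 h (purple), by role. Bars are ± SE from DESeq2, filled points have an adjusted p of at most 0.05, and dotted lines mark 2-fold. Idi1 and Stard4 reach 2.09 and 2.30 at 6 h, and Mvk and Nsdhl lie at -1.10 and -1.04.

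The genes that control the pathway moved in opposite directions. Srebf2, which encodes the SREBP factor known mainly for cholesterol genes (ENSMUSG00000022463, chr15:82147181-82205379, plus strand), had normalized counts of 5098 and 5236 (0 h), 6756 and 8051 (2 h) and 8258 and 8897 (6 h). The groups did not overlap, and Srebf2 rose by a log2 of 0.52 ± 0.13 at 2 h (adjusted p = 0.00046) and 0.73 ± 0.13 at 6 h (adjusted p = 1.02e-07). Srebf1, whose product is known mainly for fatty acid genes (ENSMUSG00000020538, chr11:60199089-60222581, minus strand), had 864 and 952 at 0 h, against 493 and 680 at 2 h and 568 and 671 at 6 h. All 4 KCl libraries were below 0 h, with changes of -0.63 ± 0.20 at 2 h (adjusted p = 0.00972) and -0.55 ± 0.20 at 6 h (adjusted p = 0.0169). Its exons overlap Rai1 on the opposite strand.

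Insig1, which holds the SREBP complex in the endoplasmic reticulum and is itself a known SREBP target (ENSMUSG00000045294, chr5:28071363-28078662, plus strand), had normalized counts of 2889 and 2822 (0 h), 9366 and 8223 (2 h) and 8844 and 8331 (6 h). The rise was 3.08-fold at 2 h (log2 1.62 ± 0.12, adjusted p = 5.33e-42) and 3.01-fold at 6 h (1.59 ± 0.12, adjusted p = 1.3e-40), and the 2 h and 6 h libraries overlapped. Insig2, its paralog, had 599 and 559 at 0 h, against 555 and 515 at 2 h and 670 and 639 at 6 h, and did not pass the test at 2 h (-0.11 ± 0.14) or 6 h (0.18 ± 0.14). Scap, the escort of SREBP, was higher at 2 h (0.39 ± 0.14, adjusted p = 0.0271) and was at -0.05 ± 0.14 at 6 h, with a fall between these times (-0.44 ± 0.14, adjusted p = 0.00587). At 2 h, Srebf1 (-0.69 to -0.55) and Srebf2 (0.51 to 0.55) did not pass without 0 h replicate 1 (adjusted p = 0.105 and 0.0821) or 0 h replicate 2 (0.243 and 0.0524). Srebf1 at 6 h did not pass with any 1 of the 0 h or 6 h libraries left out (-0.68 to -0.44, adjusted p up to 0.234), and Scap at 2 h with any library but 2 h replicate 1 left out (0.23 to 0.46, up to 0.392). The change of Scap after 2 h did not pass without either 6 h library (-0.46 to -0.42, adjusted p up to 0.126), and came to -0.56 without 2 h replicate 1 and -0.28 without 2 h replicate 2.

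**Figure D4:**
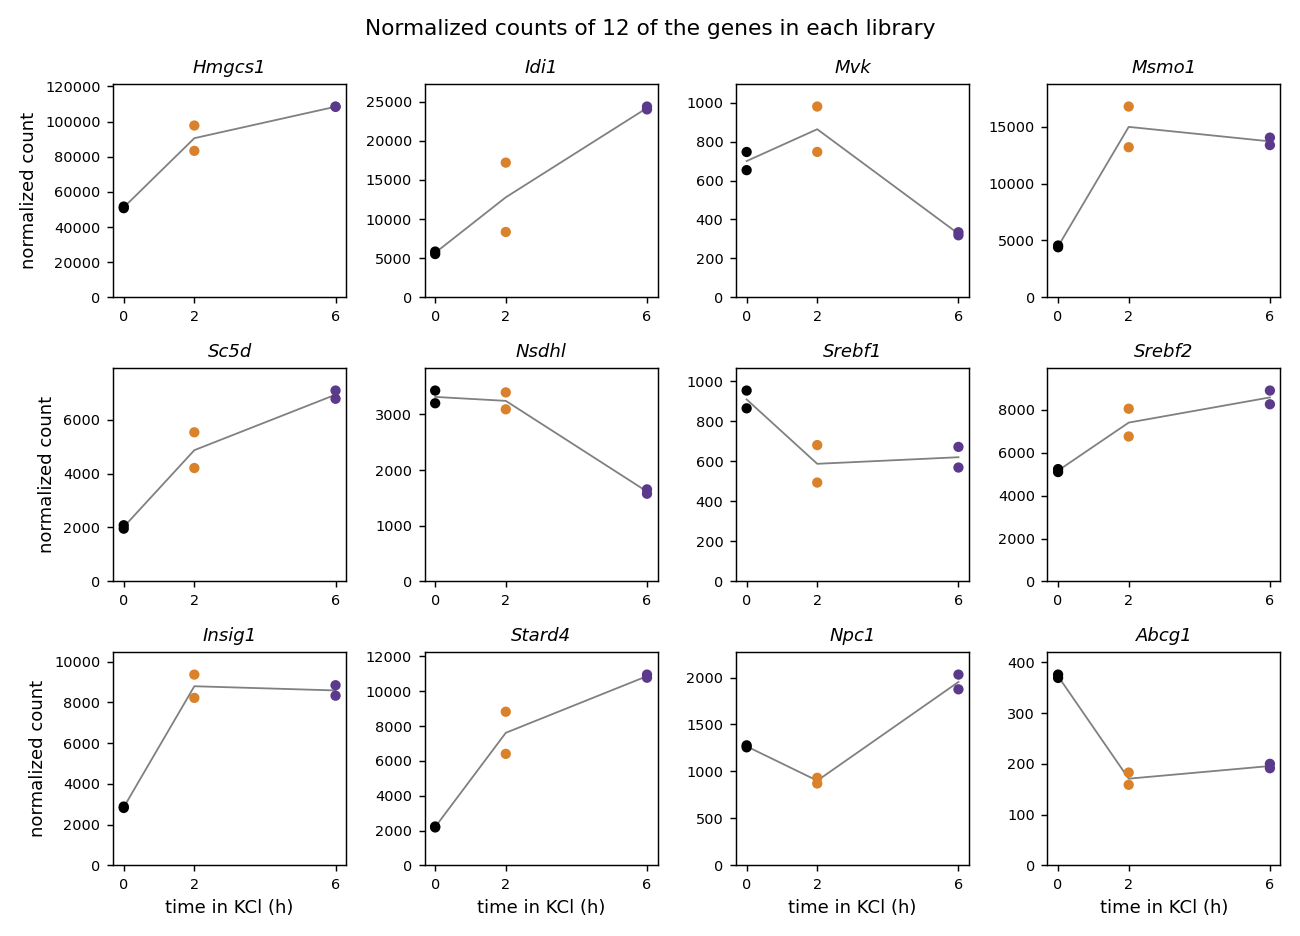
Normalized counts (vertical axes, from 0) of 12 members against time in KCl (horizontal axes). Points are libraries and the line joins the means of 2. Insig1 is up by 2 h and level after, Stard4 and Idi1 go on rising, Mvk and Nsdhl fall after 2 h, and Npc1 dips from 1278 and 1257 to 872 and 933 before reaching 2031 and 1874.

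Transport genes held both the highest rise and the one reversal. Stard4, a soluble carrier that moves sterol between membranes, had normalized counts of 2235 and 2182 (0 h), 8823 and 6405 (2 h) and 10776 and 10956 (6 h), with no overlap between groups. The rise was 3.45-fold at 2 h (log2 1.79 ± 0.17, adjusted p = 4.63e-24) and 4.92-fold at 6 h (2.30 ± 0.17, adjusted p = 3.84e-40), the largest of the members at both times in this fit. Npc1, the lysosomal membrane protein that passes cholesterol out of the lysosome, had 1278 and 1257 at 0 h, against 872 and 933 at 2 h and 2031 and 1874 at 6 h. It was lower at 2 h (-0.49 ± 0.12, adjusted p = 0.000438), higher at 6 h (0.62 ± 0.12, adjusted p = 1.07e-06) and 2.16-fold higher at 6 h than at 2 h (1.11 ± 0.12, adjusted p = 1.34e-18). Npc2, its soluble partner in the lysosome, did not follow this course and was higher at 2 h (0.36 ± 0.12) and 6 h (0.37 ± 0.12). The change of Npc1 at 2 h kept its size without 0 h replicate 1 (-0.47, adjusted p = 0.126) or 0 h replicate 2 (-0.50, adjusted p = 0.1) but did not pass. The step of Stard4 after 2 h likewise did not pass without 6 h replicate 1 (adjusted p = 0.0852) or 6 h replicate 2 (0.101), at 0.50 to 0.52, and its size came to 0.77 without 2 h replicate 1 and 0.31 without 2 h replicate 2. Npc2 did not pass with any library but 2 h replicate 1 left out at 2 h (0.21 to 0.38, adjusted p up to 0.32) nor with any 1 of the 0 h or 6 h libraries left out at 6 h (0.35 to 0.39, up to 0.171). Npc1 overlaps exons of Rmc1 and Gm15956 on the opposite strand.

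Genes that send sterol out of the cell were lower or did not pass. Abcg1, an efflux transporter induced by oxysterols through LXR receptors (ENSMUSG00000024030, chr17:31057675-31117988, plus strand), was the least abundant member at 7.87 and 8.1 TPM at 0 h. Its normalized counts were 369 and 376 (0 h), 159 and 183 (2 h) and 200 and 192 (6 h). All KCl libraries were below 0 h, with changes of -1.13 ± 0.19 at 2 h (adjusted p = 1.2e-07) and -0.93 ± 0.19 at 6 h (adjusted p = 7.87e-06). Abca1, the related transporter, had 4212 and 4214 at 0 h, against 3830 and 3564 at 2 h and 4137 and 3753 at 6 h, and did not pass at 2 h (-0.19 ± 0.11, adjusted p = 0.223) or 6 h (-0.09 ± 0.11, adjusted p = 0.52). Without 2 h replicate 1 it did pass at 2 h (-0.25, adjusted p = 0.0222). Cyp46a1, the neuronal hydroxylase that starts the removal of brain cholesterol, had 872 and 928 (0 h), 945 and 1211 (2 h) and 654 and 571 (6 h). It was lower at 6 h against 0 h (-0.56 ± 0.18, adjusted p = 0.00528) and 2 h (-0.81 ± 0.18, adjusted p = 2.28e-05), the former not passing without 0 h replicate 1 (0.0644), 0 h replicate 2 (0.13) or 6 h replicate 2 (0.156), at -0.60 to -0.46. Without 2 h replicate 1, Cyp46a1 and Mvk passed as higher at 2 h (0.42 and 0.47, adjusted p = 0.0271 and 0.0276).

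Apoe, the lipoprotein of astrocytes and a member at 766 and 891 TPM at 0 h, had normalized counts of 5809 and 6215 at 0 h, against 6232 and 8065 at 2 h and 4971 and 5708 at 6 h. It passed at neither time against 0 h (0.25 ± 0.16 and -0.17 ± 0.16, adjusted p = 0.283 and 0.413) and was lower at 6 h than at 2 h (-0.42 ± 0.16, adjusted p = 0.0231). Which tests Apoe passed changed with the libraries used. Without 2 h replicate 1 it passed at 2 h (0.41, adjusted p = 6.72e-05) and at 6 h (-0.17, adjusted p = 0.0468), with GC correction it passed at 2 h (0.22, adjusted p = 0.0173), and its change after 2 h did not pass with any library but 2 h replicate 1 left out (adjusted p up to 0.267), coming to -0.21 without 2 h replicate 2.

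The fatty acid genes rose little but from high levels. Fasn, fatty acid synthase, had normalized counts of 15375 and 15960 (0 h), 22158 and 28217 (2 h) and 25615 and 28500 (6 h). The 2 h libraries lay apart, all 4 KCl libraries were above 0 h, and the changes were 0.68 ± 0.15 (adjusted p = 4.88e-05) and 0.79 ± 0.15 (adjusted p = 8.56e-07). Scd2, the main stearoyl-CoA desaturase of brain, second among the members in mean TPM over all libraries, went from 72914 and 74833 to 96003 and 97214 and then 90825 and 91016 (0.39 ± 0.08 and 0.30 ± 0.08). Scd1, its paralog, was higher at 2 h (0.39 ± 0.10, adjusted p = 0.00114) and had 0.23 ± 0.10 at 6 h (adjusted p = 0.0575). At 6 h Scd1 passed without 2 h replicate 1 (adjusted p = 0.000969), without 2 h replicate 2 (0.00134) and with GC correction (0.35, adjusted p = 0.00228), but scaled by library totals it was at -0.02 (adjusted p = 0.914). Scd2 did not pass without either 0 h library at 2 h (0.38 to 0.41, adjusted p up to 0.126) nor with any 1 of the 0 h or 6 h libraries left out at 6 h (0.28 to 0.32, up to 0.183), and Scd1 at 2 h did not pass without 0 h replicate 2 (0.32, adjusted p = 0.237).

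Effective length, the length of the transcripts of a gene less that of the sequenced fragments, weighted by transcript abundance, did not give a call on any member. By limma's moderated test it was called for 0 of 33 members at 2 h against 0 h, 6 h against 0 h and 6 h against 2 h, with 3, 4 and 3 members at an unadjusted p under 0.05 (9.09%, 12.1% and 9.09%, against 8.08%, 14% and 12.2% of all genes tested). Over the 11233 genes tested the calls came to 0.0356%, 0.525% and 0.116%. The value also holds a term of its library, since between 0 h replicate 1 and 6 h replicate 1 Hmgcs1 went from 2931 to 2911 bases and Fdps from 939 to 919. Ebp, with 1205 and 1178 bases at 0 h, against 1418 and 1423 at 2 h and 1317 and 1377 at 6 h, had the smallest adjusted p at 2 h (0.151) and at 6 h (0.112). Its TPM, which divides by that length, was 17.2 and 15.8 (0 h), 17.6 and 19.1 (2 h) and 17.5 and 16 (6 h).

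Base composition moved with direction. The median GC content was 48.5% in the 19 members that rose at 6 h, 55.8% in the 8 that fell and 50.3% over the 17277 genes tested. After GC correction 20 members were higher and 8 lower at 6 h, so the counts changed little. Between 2 h and 6 h the corrected counts were 9 higher and 10 lower, with Msmo1 (-0.31), Sqle (-0.18) and Insig1 (-0.19) then passing as lower and Srebf2 (0.35) and Fasn (0.26) as higher. With GC correction and the replicate block together, Sqle (0.0797) and Insig1 (0.0729) at 6 h against 2 h, Dhcr7 at 2 h (0.0621), Tm7sf2 at 6 h (0.0752) and Hsd17b7 at 6 h against 2 h (0.0554) did not pass at the adjusted p.

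The cultures also expressed markers of other cell types. Over all genes tested, 12.3% were higher and 14.2% lower at 2 h, and 23.7% and 21.7% at 6 h. Neuronal genes were high, with Map2 at a mean of 1024 TPM and Tubb3 at 1659 TPM at 0 h. The 12 neuronal markers summed to 4037 and 3961 TPM at 0 h, against 3557 and 3367 at 2 h and 3832 and 3981 at 6 h. Among them 6 were higher and 2 lower at 2 h (50% and 16.7%), and 8 were higher and 2 lower at 6 h (66.7% and 16.7%). The 2 lower at 6 h were Tubb3 (-1.01) and Slc17a7 (-0.44). The 10 astrocyte markers summed to 4622 and 4703 TPM at 0 h, against 4299 and 3749 at 2 h and 3442 and 3267 at 6 h. Most of this sum was Fabp7, so it mainly follows that gene and does not measure the share of astrocytes. Past the threshold, 5 of the 10 (50%) were lower at 6 h while 0 passed at 2 h (Gjb6, a connexin of astrocytes, was near 0, with a mean of 0.07 TPM at 0 h). In its staining of these cultures the paper reports mostly the neuronal marker Tuj1 and minimal glial GFAP, which it reads as high neuronal purity. Microglial markers summed to 3.72 to 9.71 TPM over the 6 libraries and vascular and fibroblast markers to 13.7 to 20.9, with 5 of 8 and 7 of 9 at a mean under 1 TPM. From the microglial list 0 passed at 2 h and 1 was higher at 6 h. From the vascular and fibroblast list 1 was higher and 1 lower at 2 h, and 2 were higher and 1 lower at 6 h. Oligodendrocyte lineage markers summed to 158 and 184 TPM at 0 h, against 120 and 145 at 2 h and 138 and 149 at 6 h, every KCl library being below 0 h. Of these 10 markers 1 was lower at 2 h (Sox10 at -2.61, adjusted p = 4.87e-14), and 2 were higher and 3 lower at 6 h (20% and 30%). Progenitor markers summed to 340 and 372 TPM at 0 h, against 388 and 446 at 2 h and 651 and 663 at 6 h, the latter mainly through Vim. Of the 8 markers 2 were higher and 0 lower at 2 h (25% and 0%), and 3 were higher and 2 lower at 6 h (37.5% and 25%). The 2 lower at 6 h were Hes5 (-1.81) and Top2a (-0.44). In these bulk samples fewer cells of a type and less RNA per cell cannot be told apart, and the part of these shifts in the values of Apoe, Abca1 or any other member was not tested.

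Other genes of the same pathways were counted beside the members, against 12.3% of all genes tested higher and 14.2% lower at 2 h, and 23.7% and 21.7% at 6 h. Of 16 further sterol and isoprenoid genes, 0 were higher and 2 lower at 2 h by DESeq2 at the adjusted p, and 6 were higher and 6 lower at 6 h (37.5% each). The 2 lower at 2 h were 12.5% of the list, near the share of all genes. At an unadjusted p of at most 0.05, 2 of the 16 were higher at 2 h, and 1 was higher by edgeR at the adjusted p. Icmt, which methylates prenylated proteins, rose by 1.20 at 6 h, whereas Fntb, a farnesyltransferase subunit, changed by -1.04 and Coq2, of ubiquinone synthesis, by -0.97. Of 14 further genes of SREBP control, 2 were higher and 5 lower at 2 h (14.3% and 35.7%), and 8 were higher and 4 lower at 6 h (57.1% and 28.6%). Prkaa1, a catalytic subunit of the energy-sensing kinase AMPK, had the largest change of these at 2 h (-1.32, adjusted p = 1.02e-09), and Nfyc, an NF-Y subunit, rose by 1.00 at 6 h. Erlin2, of a complex that degrades membrane proteins, changed by -0.93 at 6 h (adjusted p = 3.15e-17).

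Of 27 further fatty acid genes, 5 were higher and 4 lower at 2 h (18.5% and 14.8%), and 8 were higher and 7 lower at 6 h (29.6% and 25.9%), shares near those of all genes. Hsd17b12, of fatty acid elongation, went from 1993 and 1950 to 2991 and 2683 and then 6810 and 6802, a log2 change of 1.79 at 6 h (adjusted p = 3.5e-58). Oxsm and Mcat, of the mitochondrial fatty acid pathway, changed by -2.34 and -1.70 at 6 h. Of 15 oxysterol and LXR genes, 1 was higher and 2 lower at 2 h (6.67% and 13.3%), and 1 was higher and 4 lower at 6 h (6.67% and 26.7%), among the latter Abcg4 (-1.06), a relative of Abcg1, Cyp7b1 (-1.15) and Lpcat3 (-0.98). Of 22 genes of sterol uptake and storage, 3 were higher and 2 lower at 2 h (13.6% and 9.09%), and 5 were higher and 2 lower at 6 h (22.7% and 9.09%). Gramd1a, a sterol carrier at membrane contacts, rose by 1.01 at 6 h and Nceh1, a cholesterol ester hydrolase, changed by -1.79.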

How the data were processed

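Gene tables of 6 RNA-seq libraries were used, and the bisulfite libraries were left out. Per the labels and the study's methods, the authors made stranded poly(A) libraries, trimmed reads and ran RSEM on mm10, and the submitters' processing notes name RSEM 1.3.0 and Bowtie2 2.2.9. The expected counts deposited by the authors are not normalized and need not be whole. The TPM values deposited by the authors are corrected for effective length, which is in bases and which the authors deposited per gene.

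Expected counts were rounded and tested with DESeq2 1.42.0 (R 4.3.3), as in the study's methods, with group as the only term, fold changes left unshrunken and p-values adjusted by Benjamini and Hochberg over all genes kept. Called means an adjusted p of at most 0.05 and over 2-fold. edgeR 4.0.16 (quasi-likelihood, TMM) was an alternative. Effective lengths were tested with limma 3.58.1 in genes whose mean count reached 100, called at an absolute log2 ratio of at least 0.2. GC correction used a smooth of span 0.5. Other alternatives were TMM or total-count scaling, a minimum mean count of 10, a replicate block and leaving out each library. The tests were tried on simulated data.

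The text names all 33 members, and from each other list up to 3 genes per comparison with the largest change among those past the threshold, whose mean normalized count reached 100 and whose groups did not overlap, fewer being printed. Marker genes are named as examples. Members and lists were chosen with earlier results of these data known. Several genes of the pathway lists are not reported here. Coordinates are from GENCODE M21 on GRCm38, and genes with non-whole counts or overlapping exons are uncertain. Counting precision covers counting error only.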

Additional observations from a re-analysis of the deposited data

Results flagged for a closer look

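Npc1 was picked out because its changes at 2 h and 6 h against 0 h passed in opposite directions. That choice fixes a large difference between 6 h and 2 h in the same libraries, so its log2 fold change of 1.11 between these times is given as a description. The change at 2 h kept its size without 0 h replicate 1 (-0.47, adjusted p = 0.126) or 0 h replicate 2 (-0.50, adjusted p = 0.1) but did not pass.

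Among the other pathway genes named by the rule, 3 met the same condition. Erlin1, of the sterol-sensing complex that degrades membrane proteins, changed by -0.74 at 2 h and 0.69 at 6 h, and by 1.43 between them. Nfya, an NF-Y subunit, changed by -0.72 and 0.56, and by 1.28 between them. Sp1, a transcription factor that works with SREBP, changed by -0.46 and 0.89, and by 1.35 between them. All 4 genes share the 0 h libraries, so their 2 h and 6 h changes against 0 h are not independent.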

How the results depend on the processing

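Over 1287 refits of single members, 1109 kept direction and side of the threshold, 115 no longer passed, 31 came to pass, 31 changed sign with neither value past the threshold, and 1 reversed: Acat2 at 6 h against 0 h, with library totals as size factors (-0.004 against 0.24). That scaling moved the median of all genes to -0.16 at 2 h and -0.25 at 6 h, and gave 14 members higher and 5 lower at 2 h and 15 higher and 10 lower at 6 h. With it, 4 members were called lower at 6 h against 0 h rather than 2, and 3 were higher at 6 h against 2 h rather than 7. GC correction, alone or with the replicate block, left 1 called lower at 6 h against 0 h. Same-numbered replicates deviated together weakly over 12290 genes (r = 0.28, -0.00 and 0.15 for 2 h against 0 h, 6 h against 0 h and 6 h against 2 h), so the numbers do not establish pairs. The replicate block gave 21 higher and 3 lower at 2 h, 19 higher and 8 lower at 6 h, and 8 higher and 7 lower at 6 h against 2 h, losing Dhcr7 at 2 h (adjusted p = 0.065) and adding Hmgcs1 at 6 h against 2 h (adjusted p = 0.0496).

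Leaving out 1 library, members higher ranged between 12 and 24 for 2 h against 0 h, 15 and 20 for 6 h against 0 h, and 2 and 9 for 6 h against 2 h, and members lower between 1 and 5, 4 and 9, and 5 and 7. Called higher ranged between 5 and 7, stayed at 9, and ranged between 1 and 2, and called lower stayed at 1, then ranged between 1 and 3 and between 1 and 3. Effective length gave 0 members in every alternative. In those fits the lone library of a group is assumed to vary like the others. With 2 libraries per group, changes under about 2-fold are measured loosely. In data simulated for 6 h against 0 h over 22515 genes, 38% of genes changed by a log2 of 0.5 were recovered, against 100% at a log2 of 1. The simulation changed 50 genes at each size and direction and gave all genes the same spread. Far more genes passed in the real comparison, so the simulated shares need not hold there.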
